A study of Mus musculus with 6 samples.

Results

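The class 3 semaphorins and neuropilins were followed in cultured cerebellar granule cells (GCs) after knockdown (KD) of Ythdf2. The group comprises the 7 secreted ligands Sema3a, Sema3b, Sema3c, Sema3d, Sema3e, Sema3f and Sema3g and the 2 receptors Nrp1 and Nrp2, that is 9 of the 53421 genes in the table of read counts. The rule for membership is the gene name, matched to the gene identifiers of the GRCm38 mouse annotation, and uses no measured value. The libraries came from GCs of C57BL/6 pups, labelled postnatal day 8, that were infected in culture with lentivirus carrying a short hairpin RNA and then selected with puromycin. One group received a hairpin against Ythdf2 (shYthdf2, 3 libraries), which encodes a reader of the m6A mark on mRNA that is known to promote mRNA decay, and the other a control hairpin (shCtrl, 3 libraries). Both groups therefore carry a lentiviral hairpin and went through the same selection. The library names assign the shYthdf2 group to hairpin shYthdf2#3 alone, so the comparison rests on 1 hairpin. The study's methods call the libraries biological replicates, and how many pups or cultures stand behind each was not given in the sources used here. If libraries share a culture, the p-values cover only the spread between these libraries.

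Class 3 semaphorins are secreted guidance cues that steer growing axons, mostly by repulsion, and also act on migrating neurons and blood vessels. Most of them bind a neuropilin, which has no strong signalling domain of its own, and the neuropilin presents the ligand to a plexin of the A family or to plexin D1, whose cytoplasmic domain acts on small GTPases and the cytoskeleton. Sema3a is bound mainly by Nrp1 and Sema3f mainly by Nrp2, whereas Sema3e can bind plexin D1 directly. GCs extend the parallel fibers of the cerebellar cortex, and semaphorins and plexins are known to take part in the migration and axon growth of neurons in this tissue.

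The titles and the genotype field of the samples assign the KD to one set of 3 libraries and the library names to the other. The names were followed here, and if the titles and the genotype field were correct every direction given below would be inverted. Ythdf2 itself had 501, 402 and 501 normalized counts in shYthdf2 libraries 1, 2 and 4 and 618, 841 and 628 in those of shCtrl, where normalized counts are read counts scaled to a common library size by TMM. Ythdf2 was thus lower in all 3 libraries named as the KD, with a log2 fold change of -0.57 (SE 0.16, edgeR adjusted p = 0.125), which did not pass the threshold of 0.05. Without the libraries numbered 2 it was -0.32 (SE 0.07, edgeR adjusted p = 0.00124), in a fit where 52.7% of all genes passed. Adjusted p-values come from the quasi-likelihood fit of edgeR over all genes tested and were adjusted by Benjamini and Hochberg's method. SE is an approximate standard error of a log2 fold change. It was derived as the absolute log2 fold change divided by the square root of the F statistic of that test. The libraries held 17246821 to 21546595 counts. Number 2 stood apart in both groups: between libraries 1 and 4 of a group the counts differed by a chi-square of 3.34 (shYthdf2) and 4.64 (shCtrl) per degree of freedom, whereas library 2 differed from its own group by 32.9 to 54.8, and the libraries numbered 2 of the opposite groups differed by 22.1. The fold changes of the members are therefore given with and without number 2. Markers of granule neurons summed to 142100 to 147700 normalized counts in the 6 libraries, with all 9 markers tested, and Zic1 alone held 60660 to 66400 of them. Of the 9, none passed the adjusted threshold in edgeR and 2 were lower at an unadjusted p under 0.05 with groups that did not overlap, Barhl1 at 65.6% of the shCtrl mean and Neurod1 at 80.3%. Markers of other cells were also present. Those of Purkinje cells summed to 472 to 735 normalized counts over the 6 libraries, those of unipolar brush cells to 5372 to 6644 and those of granule progenitors to 823 to 1160. The unipolar brush cell markers went different ways. Eomes was at 28.7% of the shCtrl mean with groups that did not overlap (log2 fold change -1.80, SE 0.29, edgeR adjusted p = 0.0502). Calb2, the most abundant of them, was at 152.7%, Otx2 at 79.6% and Lmx1a at 70.7%, each with overlapping groups. The other lists are given with the members.

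Upstream sequences are shown for the ligand and the receptor with the smallest p-values, Sema3a and Nrp1, and for Sema3c, the ligand that differed in the opposite direction. They are RefSeq promoters of GRCm38.p6 (250 bases before to 50 bases after an annotated start, plus strand), and 7 of the 9 genes were matched. The Sema3a stretch lies at chr5:13396534-13396833, inside the longer Sema3a gene span of the annotation, so it belongs to one of several starts. The Nrp1 stretch lies at chr8:128358823-128359122 and the Sema3c stretch at chr5:17574566-17574865. Both are also inside their annotated gene spans, which begin at 128358604 and 17574281. Capitals mark the GC box GGGCGG on either strand.
Sema3a promoter: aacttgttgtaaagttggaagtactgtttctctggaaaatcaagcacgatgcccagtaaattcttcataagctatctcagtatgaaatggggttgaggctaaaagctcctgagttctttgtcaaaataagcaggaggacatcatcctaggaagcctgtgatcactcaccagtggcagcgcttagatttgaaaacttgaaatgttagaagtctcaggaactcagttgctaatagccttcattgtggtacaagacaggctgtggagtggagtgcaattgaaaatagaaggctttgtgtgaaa
Nrp1 promoter: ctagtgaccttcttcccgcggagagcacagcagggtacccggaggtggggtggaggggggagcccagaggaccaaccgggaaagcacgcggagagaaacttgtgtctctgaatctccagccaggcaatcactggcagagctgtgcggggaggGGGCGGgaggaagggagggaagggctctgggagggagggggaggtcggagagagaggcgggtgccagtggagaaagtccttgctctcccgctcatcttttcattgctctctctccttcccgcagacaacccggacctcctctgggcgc
Sema3c promoter: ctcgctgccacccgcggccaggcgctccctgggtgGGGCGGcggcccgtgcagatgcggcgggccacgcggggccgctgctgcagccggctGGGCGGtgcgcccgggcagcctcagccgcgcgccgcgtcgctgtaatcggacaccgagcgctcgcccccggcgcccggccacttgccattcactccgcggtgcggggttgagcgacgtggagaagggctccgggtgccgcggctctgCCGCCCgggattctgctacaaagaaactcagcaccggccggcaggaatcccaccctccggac

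The promoters differed in the letters searched. Sema3a and Sema3d had 0 matches to the GC box, Nrp1 and Sema3g had 1, Sema3e had 2, Sema3c had 3 and Nrp2 had 5, and 35.7% of all 32851 promoters hold at least 1. GC content was 41.3% with 2 CpG dinucleotides for Sema3a, 64.0% with 14 for Nrp1 and 75.7% with 42 for Sema3c, against medians of 52.7% and 7 over all promoters. The AP-1 site TGANTCA (7.81% of all promoters), the cAMP response element TGACGTCA (1.79%) and the TATA motif TATAAA (13.6%) had 0 matches on both strands in all 7 matched promoters. The E-box CACGTG (7.15%) had 1 match, in Sema3e. These matches describe the letters of the windows only.

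Before the groups were compared, the members were ordered by their level in the shCtrl libraries, in normalized counts per kb of annotated exon so that genes of different length could be compared. Sema3d, a ligand known from neural crest and vascular patterning, had the highest level at 177 ± 43.9 (SD, n = 3), above 64.5% of all genes tested. Nrp2 followed at 88.0 ± 29.0 per kb, near the middle of all genes (percentile 49.5). Sema3f at 24.6 ± 6.67, Nrp1 at 15.0 ± 4.07 and Sema3a at 14.2 ± 2.45 per kb lay in the lower part of the order, at percentiles 27.3, 20.2 and 19.6. The levels of Nrp1 and Sema3a did not differ beyond their spread. Sema3c (7.55 ± 0.93 per kb) and Sema3b (5.95 ± 1.39) were lower still and within their spread of each other. Sema3g (2.22 ± 1.40) and Sema3e (1.84 ± 0.25) were close to the floor of the genes tested and not distinguishable, and their order turned when a single representative transcript was used for the length (2.22 and 2.49). In the shYthdf2 libraries Sema3d (293 ± 59.0 per kb) and Nrp2 (129 ± 3.94) were again first, followed by Nrp1 (32.5 ± 7.28), Sema3a (28.1 ± 1.86) and Sema3f (21.3 ± 2.34).

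**Figure D1:**
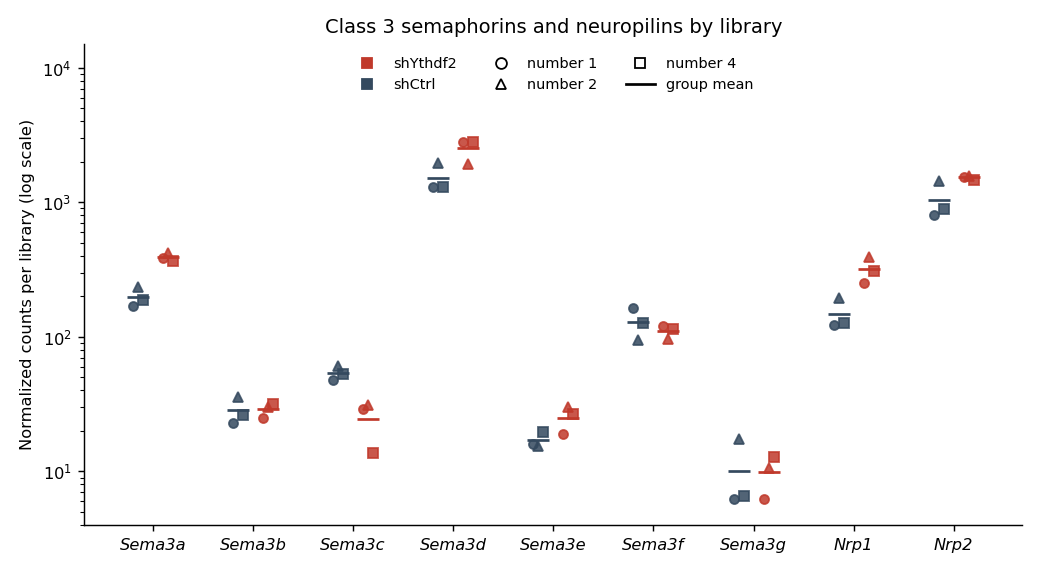
Normalized counts (log axis, not divided by gene length) of the 9 genes in each of the 6 libraries, with shCtrl on the left and shYthdf2 on the right of each gene. Symbols give the library number and lines the group means. Sema3a, Nrp1 and Nrp2 lie higher and Sema3c lower in all 3 shYthdf2 libraries than in all 3 shCtrl libraries, and the Sema3d values of number 2 lie between those of the other libraries.

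The comparison of shYthdf2 with shCtrl asked how the levels of these cues and receptors differ after KD. Sema3a and Nrp1, a ligand and its main receptor, were each at 197% and 216% of the shCtrl mean in the shYthdf2 libraries, Nrp2 was also higher, and Sema3c was lower. None of the 9 genes had an adjusted p-value under 0.05 in edgeR, against 0.604% of all 17214 genes tested. At an unadjusted p under 0.05 there were 4 members higher (Sema3a, Sema3d, Nrp1 and Nrp2), against 9.5% of all genes higher, and 1 lower (Sema3c), against 10.6% lower. DESeq2 called 3 members (Sema3a, Sema3d and Nrp1), against 8.5% of its genes, and limma-voom called 0. The groups did not overlap for 3 members that were higher (12.6% of all genes) and 1 that was lower (13.4%). Of the 9 log2 fold changes 6 were positive and 3 negative, with a median of 0.55, against 0.01 over all genes tested. Because the RNA is from bulk cultures, fewer cells of a type and less RNA per cell cannot be told apart.

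With the library number as a block, 2 members passed the adjusted threshold, Sema3a and Nrp1, against 1.35% of all genes. The labels do not state that libraries of the same number are paired. With a batch term for number 2 there were 4 (Sema3a, Sema3c, Nrp1 and Nrp2), against 22.1% of all genes. Without number 2 of both groups there were 5 (the same 4 and Sema3d), but then 52.7% of all genes passed, with libraries 1 and 4 of a group close to each other. Read against that share, 5 of 9 is not a result about these genes.

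Sema3a, the repellent that collapses growth cones through Nrp1 and A plexins, lies on chromosome 5 (13125414 to 13602565, plus strand, ENSMUSG00000028883). It had 384, 418 and 367 normalized counts in shYthdf2 libraries 1, 2 and 4 and 169, 235 and 188 in the shCtrl libraries. Every shYthdf2 library lay above every shCtrl library, and the lowest of them was well above the highest control. The means were 390 ± 25.8 and 198 ± 34.0 (SD, n = 3). This was a log2 fold change of 0.98 (SE 0.16, adjusted p = 0.0527, edgeR), and the block gave an adjusted p = 0.0450 in edgeR. Within numbers 1, 2 and 4 the log2 difference was 1.18, 0.83 and 0.97. Without number 2 the edgeR log2 fold change was 1.07 (SE 0.11, adjusted p = 5.85e-07). Leaving out shYthdf2 library 2 alone gave an edgeR adjusted p = 0.0488, leaving out shCtrl library 2 alone gave 0.00420, and over all 15 alternatives it ran from 5.85e-07 to 0.286.

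Sema3d (chromosome 5, 12383385 to 12588948, plus strand, ENSMUSG00000040254) carried most of the class 3 ligand level, with 2815, 1930 and 2801 normalized counts in shYthdf2 libraries 1, 2 and 4 and 1307, 1955 and 1297 in shCtrl. Numbers 1 and 4 were higher after KD by 1.11 and 1.11 on the log2 scale, whereas the difference within number 2 was -0.02, so the groups overlapped. The means were 2515 ± 507 and 1520 ± 377 (SD, n = 3). The log2 fold change was 0.73 (SE 0.21, adjusted p = 0.130, edgeR), and the block gave an adjusted p = 0.1199 in edgeR. Without shCtrl library 2 the edgeR adjusted p was 0.0156, in a fit where 3239 of all genes passed. Without number 2 of both groups the log2 fold change was 1.10 (SE 0.04, edgeR adjusted p = 4.31e-12). Over all 15 alternatives the adjusted p of Sema3d ran from 4.31e-12 to 0.414. The markers of 3 glial cell types, summed by type, were also highest in library 2 of shCtrl. Those of the oligodendrocyte lineage, 8 genes, summed to 5016, 16680 and 4785 normalized counts in shCtrl libraries 1, 2 and 4 and to 12920, 16950 and 13290 in shYthdf2, where number 2 was the highest and not, as for Sema3d, the lowest. None of the 8 passed the adjusted threshold in edgeR, 1 had an unadjusted p under 0.05 and none was at 0 in any library. The 8 markers of astrocytes and Bergmann glia summed to 8075, 12280 and 8188 in shCtrl and to 10560, 10110 and 10300 in shYthdf2, and the 8 of microglia to 212, 852 and 186 in shCtrl and to 1065, 407 and 1165 in shYthdf2. In the sums of both of these lists number 2 was the highest of shCtrl and the lowest of shYthdf2, as for Sema3d. The single markers did not all follow their sums. Slc1a3, Slc1a2, Aldh1l1, Sox9 and Hopx among the astrocyte markers, and Tmem119 of microglia, were highest in library 2 within shYthdf2. Gfap, Aqp4 and Gdf10 were lowest there, as were Pdgfra, Olig2 and Sox10 of the oligodendrocyte list. Slc1a2 and Sox9 were lowest in library 2 within shCtrl. Of the astrocyte markers none passed the adjusted threshold in edgeR, and Aqp4 was higher and Slc1a2 lower at an unadjusted p under 0.05. No microglial marker reached that threshold. The part of these cells in the Sema3d values was not tested.

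Sema3c, which binds both neuropilins and is known from cardiac and cortical development, lies on chromosome 5 (17574281 to 17730268, plus strand, ENSMUSG00000028780). It had 29.3, 31.0 and 13.8 normalized counts in shYthdf2 and 47.9, 61.0 and 52.7 in shCtrl. The groups did not overlap, and shYthdf2 library 4 was lowest. The means were 24.7 ± 9.48 and 53.9 ± 6.64 (SD, n = 3), that is 45.8% of the control level. The log2 fold change was -1.12 (SE 0.35, adjusted p = 0.143, edgeR), and the block gave an adjusted p = 0.0862 in edgeR. Without number 2 it was -1.22 (SE 0.32, edgeR adjusted p = 0.00452), and over all 15 alternatives the adjusted p ran from 0.00452 to 0.399. With 13 to 63 raw counts per library, the depth limits how closely this difference can be measured.

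The other 4 ligands showed no difference that passed a test. Sema3f, the ligand of Nrp2 (chromosome 9, 107681500 to 107710475, minus strand), had 120, 97.0 and 115 normalized counts in shYthdf2 and 163, 94.0 and 126 in shCtrl, with the groups overlapping and a log2 fold change of -0.21 (SE 0.24, adjusted p = 0.673, edgeR). Sema3b, its neighbour on the same strand (chromosome 9, 107597674 to 107609229), ran from 25.1 to 31.8 in shYthdf2 and from 23.1 to 35.8 in shCtrl, with a log2 fold change of 0.03 (SE 0.29). Sema3e, the ligand of plexin D1 (chromosome 5, 14025276 to 14256689, plus strand), ran from 18.8 to 30.1 in shYthdf2 and from 15.5 to 19.8 in shCtrl. Its log2 fold change was 0.56 (SE 0.32, adjusted p = 0.363, edgeR) on 16 to 31 raw counts. Sema3g (chromosome 14, 31217860 to 31230352, plus strand), known from blood vessels, had 6 to 18 raw counts per library and a log2 fold change of -0.03 (SE 0.54). The SE of 0.54 leaves this estimate imprecise, and the size of difference that could be detected at this depth was not tested. The sign of the Sema3g fold change turned positive in 6 alternatives. Without number 2 the log2 fold changes of Sema3b, Sema3e and Sema3f were 0.20, 0.35 and -0.31 (edgeR adjusted p = 0.602, 0.435 and 0.113), and Sema3g did not pass the filter on low counts.

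**Figure D2:**
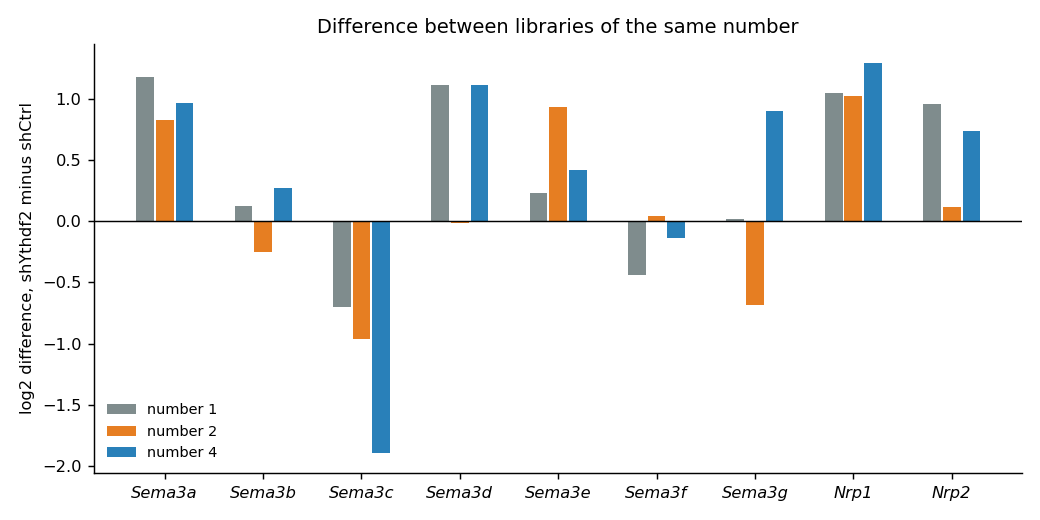
The log2 difference between the shYthdf2 and the shCtrl library of the same number (log2 of normalized counts plus 0.5) for each of the 9 genes, with bars for numbers 1, 2 and 4. Sema3a and Nrp1 are higher and Sema3c is lower in all 3 numbers, whereas for Sema3d and Nrp2 number 2 shows -0.02 and 0.12.

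Nrp1, the receptor of Sema3a and a co-receptor of VEGF-A, lies on chromosome 8 (128358604 to 128503363, plus strand, ENSMUSG00000025810). It had 251, 393 and 309 normalized counts in shYthdf2 libraries 1, 2 and 4 and 121.5, 193 and 126 in shCtrl. Every shYthdf2 library lay above every shCtrl library, and number 2 was the highest in both groups. The means were 318 ± 71.3 and 147 ± 39.8 (SD, n = 3), and edgeR fitted a log2 fold change of 1.11 (SE 0.25, adjusted p = 0.0815). The block gave an adjusted p = 0.0450 in edgeR. Within numbers 1, 2 and 4 the log2 difference was 1.04, 1.02 and 1.29. Without number 2 the log2 fold change was 1.17 (SE 0.13, edgeR adjusted p = 2.79e-06), and without shCtrl library 2 alone the adjusted p was 0.0105 in edgeR. Over the 15 alternatives the adjusted p ran from 2.79e-06 to 0.334.

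Nrp2, the receptor of Sema3f, lies on chromosome 1 (62703285 to 62818695, plus strand, ENSMUSG00000025969). It had 1553, 1557 and 1474 normalized counts in shYthdf2 and 802, 1436 and 888 in shCtrl. The groups did not overlap, but shCtrl library 2 lay close to the shYthdf2 libraries. The means were 1528 ± 46.6 and 1042 ± 344 (SD, n = 3). The log2 fold change was 0.55 (SE 0.21, adjusted p = 0.208, edgeR), and the block gave an adjusted p = 0.0946 in edgeR. Without shCtrl library 2 the edgeR adjusted p was 0.00300, and without number 2 of both groups the log2 fold change was 0.84 (SE 0.06, edgeR adjusted p = 1.27e-08). Over all 15 alternatives the adjusted p of Nrp2 ran from 1.27e-08 to 0.520.

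Vascular cells, microglia and some neurons are known to express neuropilins, and the marker sums of such cells were read beside Nrp1 and Nrp2, those of microglia being given above. The 8 endothelial markers summed to 213, 413 and 213 normalized counts in shYthdf2 libraries 1, 2 and 4 and to 130, 205 and 109 in shCtrl, higher in every shYthdf2 library. The high sum of shYthdf2 library 2 came from Cdh5, with 58.5, 276 and 56.2 in shYthdf2 and 33.7, 101 and 28.6 in shCtrl, whereas Pecam1, Tek and Slco1a4 were lowest there within shYthdf2. Of these markers 5 were tested, 2 had an unadjusted p under 0.05 and were higher, none passed the adjusted threshold in edgeR, and Cldn5, Ly6c1 and Tie1 were at 0 in at least 1 library. Markers of mural cells and meningeal fibroblasts summed to 3079, 8045 and 3171 in shYthdf2 and to 2505, 6254 and 2522 in shCtrl. The 6 markers of GABAergic interneurons summed to 7635, 9238 and 7602 in shYthdf2 and to 6457, 6998 and 6367 in shCtrl. This sum, mostly Gad1, was higher in every shYthdf2 library and highest in number 2 of each group, as were the values of Nrp1. By single marker, the groups overlapped for all but Gad1. Slc6a5 was lowest in number 2 of both groups (267 and 255), with a log2 fold change of -0.62 (SE 0.42). Pax2 was lowest in shYthdf2 library 2 within its group (668), and the log2 fold change of Pvalb was -0.18. None of the 6 passed the adjusted threshold in edgeR, and Gad1, an enzyme of GABA synthesis, was higher at an unadjusted p under 0.05, with an edgeR adjusted p = 0.0876 that became 0.0450 with the block. The part of these cells in the neuropilin values was not tested.

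Both neuropilins were higher, and their ratio within each library, which does not depend on the scaling between libraries, was compared directly. The log2 ratio of Nrp1 to Nrp2, each per kb of exon, was -2.35, -1.71 and -1.98 in shYthdf2 libraries 1, 2 and 4 and -2.45, -2.62 and -2.54 in shCtrl. Nrp2 was therefore the more abundant neuropilin in every library, and the ratio was shifted towards Nrp1 in all 3 shYthdf2 libraries, least in number 1. The difference of means was 0.52 (p = 0.1 by a two-sided exact permutation test, which is the lowest value this design can reach). Without number 2 of both groups it was 0.33, and without shYthdf2 library 2 alone 0.37. The summed neuropilin level was 161.5 ± 8.78 per kb in shYthdf2 and 103.0 ± 33.1 in shCtrl (SD, n = 3).

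The summed level of the 7 ligands was 391, 290 and 389 normalized counts per kb in shYthdf2 libraries 1, 2 and 4 and 210, 284 and 205 in shCtrl, most of it from Sema3d. Sema3d held 77.55% to 83.8% of the ligand level in shYthdf2 and 72.3% to 80.1% in shCtrl. The share of Sema3a was 7.08%, 10.4% and 6.81% in shYthdf2 and 5.81%, 5.98% and 6.60% in shCtrl. The Sema3a shares did not overlap, but that of shYthdf2 library 4 was only just above the highest control. The mean share was 1.97 percentage points higher in shYthdf2 (p = 0.1 by the same exact test), and 0.74 without number 2 of both groups or 0.82 without shYthdf2 library 2 alone.

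**Figure D3:**
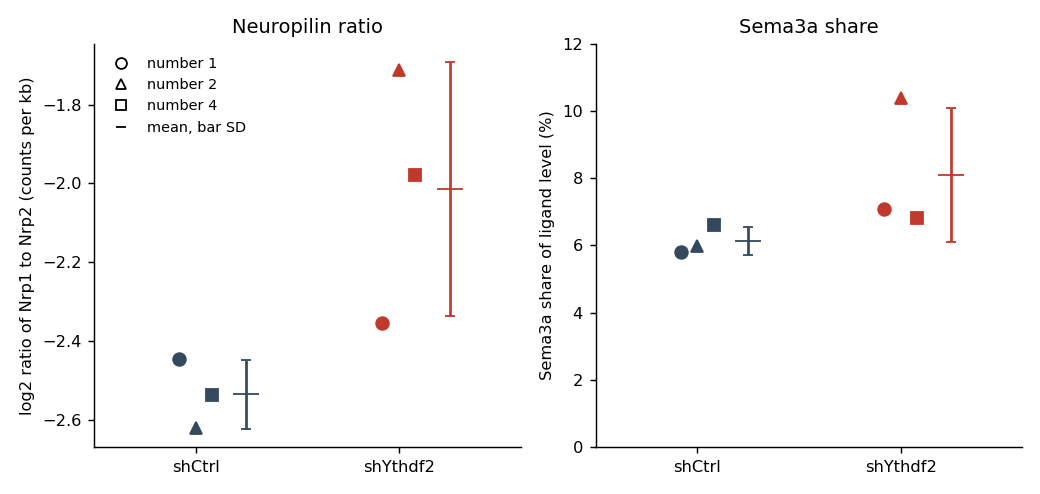
Left, log2 ratio of Nrp1 to Nrp2 (normalized counts per kb of exon) in each library. Right, the percent of the summed level of the 7 class 3 ligands held by Sema3a. Symbols give the library number, and the bars beside them the mean and SD of the 3 libraries of a group. Both measures are higher in the 3 shYthdf2 libraries, and shYthdf2 library 2 is the highest at -1.71 and 10.4%.

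The partners of these genes were read from a list of 44 genes for plexins, co-receptors, cytoplasmic effectors, convertases and the VEGF system, of which 41 were tested. None passed the adjusted threshold in edgeR (0.604% of all genes). At an unadjusted p under 0.05 there were 5 higher and 4 lower (9.5% and 10.6% of all genes), which is near the background. DESeq2 called 6 (8.5% of its genes) and limma-voom 0. With the block 1 gene passed, Mical2 (1.35% of all genes), and without number 2 there were 28 (52.7%). For the 8 partners with an unadjusted p under 0.05 whose groups did not overlap, the log2 fold changes without number 2 were 2.13 for Chl1, 0.73 for Nrcam, -0.35 for Cntn2, 1.595 for Mical2, 0.79 for Cdk5r1, -1.28 for Limk1, -0.60 for Vegfb and 1.04 for Kdr, in the same directions as with all libraries. The list's median log2 fold change was -0.02, with 20 genes higher and 21 lower, and the groups did not overlap for 5 higher and 8 lower genes (12.6% and 13.4% of all genes).

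The plexins, the signalling receptors for the class 3 ligands, showed no difference past a threshold with all 6 libraries. Per kb of exon, Plxna1, Plxna2 and Plxna3 had 644, 592 and 356 normalized counts on average in shCtrl, above every member, Plxnd1 had 197, and Plxna4 had 9.13. Their log2 fold changes were 0.10, -0.19, 0.38 and -0.07 (SEs 0.10, 0.14, 0.23 and 0.23, edgeR adjusted p = 0.592, 0.485, 0.387 and 0.887). Plxnd1, the receptor of Sema3e, had a log2 fold change of 0.21 (SE 0.16, edgeR adjusted p = 0.505). For all 5 plexins the groups overlapped. Without number 2, the log2 fold changes of Plxna1, Plxna2, Plxna3, Plxna4 and Plxnd1 were 0.09, -0.27, 0.56, -0.35 and 0.42, and all but Plxna4 were among the 52.7% of genes that passed there.

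Among the adhesion molecules that form complexes with neuropilins, the L1 family member Chl1 had 8264, 8841 and 8048 normalized counts in shYthdf2 libraries 1, 2 and 4 and 1845, 5135 and 1872 in shCtrl. The groups did not overlap, and shCtrl library 2 stood between. For Chl1 the log2 fold change was 1.51 (SE 0.39, edgeR adjusted p = 0.106). Nrcam, which binds Nrp2 in the receptor of Sema3f, was higher in all 3 numbers by 0.73, 0.36 and 0.75 on the log2 scale, with a log2 fold change of 0.61 (SE 0.12, edgeR adjusted p = 0.0621 and 0.0532 with the block). Cntn2, an axonal adhesion molecule of the contactin family, was lower in all 3 numbers, with a log2 fold change of -0.48 (SE 0.16, edgeR adjusted p = 0.158). L1cam, the partner of Nrp1, had a log2 fold change of 0.14 (SE 0.17), and 0.21 without number 2.

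Downstream of plexins, Mical2, an actin-oxidizing enzyme of the MICAL family, had 427, 469 and 458.5 normalized counts in shYthdf2 and 143, 250 and 149 in shCtrl, with groups that did not overlap. Its log2 fold change was 1.32 (SE 0.23, edgeR adjusted p = 0.0554), and the block gave an edgeR adjusted p = 0.0456. Limk1, the kinase that phosphorylates cofilin, had 1586, 1915 and 1643 in shYthdf2 and 4030, 2487 and 3800 in shCtrl. It was lower in every shYthdf2 library, with a log2 fold change of -1.004 (SE 0.19, edgeR adjusted p = 0.0585, and 0.0650 with the block). Cdk5r1, the activator of Cdk5, had a log2 fold change of 0.57 (SE 0.22, edgeR adjusted p = 0.212). The 5 collapsin response mediator proteins (CRMPs) had log2 fold changes between -0.33 and 0.13 and the 7 GTPases and regulators between -0.36 and 0.20, and none of them had an unadjusted p under 0.05. Within these, Dpysl4 moved most without number 2, from -0.33 to -0.96 (SE 0.32). Its log2 difference was -1.78 within number 1 but 0.25 within number 4.

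The VEGF system shares the neuropilins as co-receptors. Vegfb, a ligand of Flt1 and Nrp1, had 347, 361 and 329 normalized counts in shYthdf2 and 522.5, 457 and 499.8 in shCtrl, lower in every shYthdf2 library, with a log2 fold change of -0.51 (SE 0.12, edgeR adjusted p = 0.0856, and 0.0617 with the block). Kdr, the main VEGF receptor of endothelium, had 128, 92.1 and 106 in shYthdf2 and 61.2, 70.7 and 51.6 in shCtrl, higher in every shYthdf2 library. For Kdr the log2 fold change was 0.82 (SE 0.23, edgeR adjusted p = 0.119). The higher sums of endothelial markers given above moved in the same direction as Kdr, and their part in its values was not tested. Vegfa had 529, 499 and 513.7 in shYthdf2 and 1113, 456 and 1104 in shCtrl. Library 2 alone of the controls lay below the KD libraries, so the groups overlapped. Its log2 fold change was -0.79 (SE 0.31, edgeR adjusted p = 0.218), and -1.09 without number 2. The 4 proprotein convertases tested, which cleave class 3 semaphorins, had log2 fold changes of -0.25 to 0.46, and of -0.32 to 1.27 without number 2, where Pcsk6 moved from 0.33 to 1.27. Pcsk6 had only 12 to 60 raw counts per library, and its SE was 0.61 with all libraries and 0.35 without number 2.

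**Figure D4:**
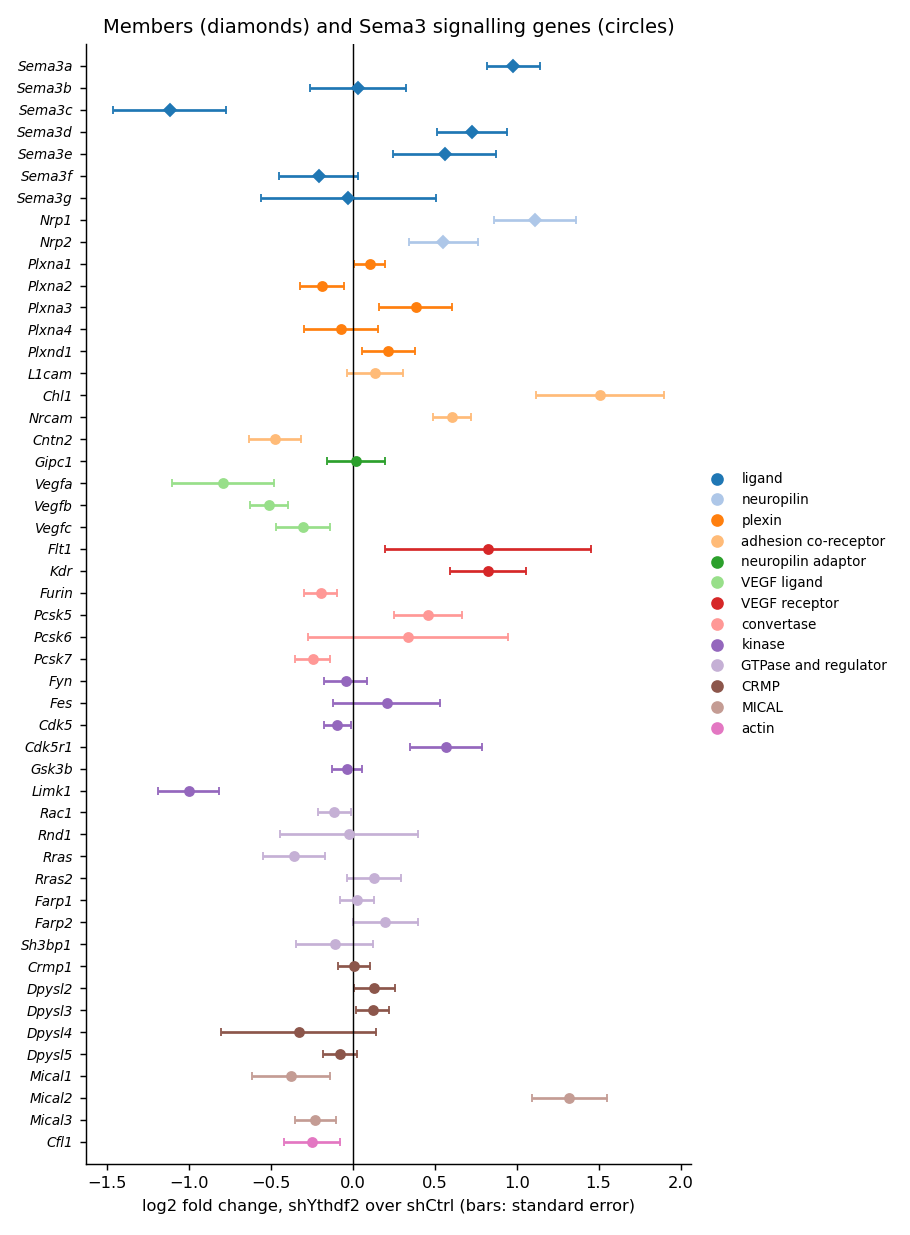
The log2 fold change of shYthdf2 over shCtrl with its SE (edgeR) for the 9 members, as diamonds, and the 41 partner genes tested, as circles coloured by role. Nrp1, Sema3a and Sema3d lie to the right and Sema3c to the left, the plexins lie between -0.19 and 0.38, and the partners spread from -1.004 (Limk1) to 1.51 (Chl1).

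The genes whose pattern over the 6 libraries was most like that of Sema3a and Nrp1 were sought among 12561 genes with a mean of at least 50 normalized counts, by the root-mean-square difference of log2 normalized counts centred on each gene's mean. For Sema3a they were Pgm2l1 (0.04), Pcsk2os1 (0.07) and Angpt1 (0.08). Nrp1 ranked 101 in likeness to Sema3a, at 0.19, Nrp2 ranked 235 and Sema3d 443, whereas Sema3f ranked 10091. For Nrp1 the closest were Lgals3bp (0.10), Dyrk3 (0.11) and Camk2a (0.12), and Sema3a ranked 19. These ranks describe 6 libraries that share the split by group and by number.

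The genes lie in few places of the genome. Sema3d, Sema3a, Sema3e and Sema3c follow each other on the plus strand of chromosome 5, and their log2 fold changes, in that order, were 0.73, 0.98, 0.56 and -1.12. Of the 12 annotated genes that overlap a member, Gm37121 within Nrp2 had 9 to 27 counts and Gm42909 within Sema3d 6 to 24, against at least 808 and 1181 for the members. The remaining 10 (Mir1903 at Nrp1, Gm29083 at Nrp2, Gm42675, Gm42676, Gm42680 and Gm43130 at Sema3a, Gm8925 at Sema3d, and Gm4128, Gm43519 and Gm43523 at Sema3e) had at most 4. Whether reads were counted by strand is not given in the sources used here, so for overlapping genes on opposite strands the reads cannot be told apart, but their counts were 0 to 2.

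Because YTHDF2 reads m6A, the letters GGACT, a common form of the m6A consensus, were counted on the sense strand of one representative coding transcript per gene. The coding sequences held 3 in Sema3a, 6 in Sema3b, 5 in Sema3c, 0 in Sema3d, 5 in Sema3e, 2 in Sema3f, 3 in Sema3g, 4 in Nrp1 and 5 in Nrp2. Per kb this ran from 0 in Sema3d to 2.67 in Sema3b, the member with a log2 fold change of 0.03, against a median of 1.08 over 13683 coding genes tested. The 3′ untranslated sequences ran from 0 per kb in Sema3b, Sema3c and Sema3f, whose transcript has 11 such bases, to 3.64 in Nrp1, against a median of 0.645, with 0.675 in Sema3a, 0.549 in Sema3d and 1.64 in Nrp2. A letter match is not a measured m6A site, and none was measured in these libraries.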

How the data were processed

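RNA-seq was analysed from 3 shYthdf2 and 3 shCtrl libraries of cultured GCs. According to the methods of the study, the authors filtered reads for quality, aligned them with HISAT and TopHat2 against GRCm38 and used HTSeq to count reads for each gene. The table they deposited holds raw counts, as whole numbers. The submitters' processing notes also name the build mm9 and the aligner Bowtie, with no role stated. Gene identifiers were matched to symbols and exons of GENCODE M21 (GRCm38), which holds 52489 of the 53421 genes. Of the 53421 identifiers, 785 do not begin with ENSMUSG.

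Groups follow the library names, and the numbers 1, 2 and 4 in them were used as replicate numbers. All genes kept by filterByExpr (minimum count 10, minimum total count 15) were fitted in edgeR 4.0.16 (R 4.3.3) with TMM normalization and the quasi-likelihood test, and p-values were adjusted by the Benjamini-Hochberg method over the 17214 genes tested. Normalized counts are at a common library size of 18966737, and levels per kb are these divided by the union of annotated exons. The depth of 17246821 to 21546595 counts per library leaves genes with few counts imprecise.

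Deviations from the group means correlated between libraries of the same number (r = 0.252, 0.36 and 0.322 for numbers 1, 2 and 4). Deviations within a group of 3 are not independent, so number 2 standing apart in both groups can raise all 3 values. By the chi-square, shYthdf2 libraries 1 and 4 differed by 47.1 and 43.7 from shCtrl library 4. From shCtrl library 1 they differed by 53.3 and 52.0. Neither the labels nor these values show that numbers 1 and 4 pair the libraries. The blocked value is an alternative and is given where it changes a call. Alternatives were RLE size factors, library size only, DESeq2 1.42.0, limma-voom (limma 3.58.1), other filters, the replicate block, a batch term for number 2, and each library or number 2 left out. The ratio and the share were also divided by the length of a representative transcript, an alternative chosen after the data were seen. Membership follows gene names alone, but this gene family, the lists and the tests were picked with earlier results of these data known. Genes named are the members, Ythdf2, the 5 plexins, list genes with an unadjusted p under 0.05 and groups that do not overlap, genes overlapping a member, and the 3 genes closest in pattern to the ligand and the neuropilin with the smallest p. Other genes, such as L1cam, Vegfa, Dpysl4, Pcsk6 and the single markers, were named after their values were seen. The scripts were tested on simulated counts, and tables and plots used Python 3.11.15, pandas 2.3.3, scipy 1.17.1 and matplotlib 3.10.9.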

Additional observations from a re-analysis of the deposited data

How the results depend on the processing

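The directions of Sema3a, Sema3c, Sema3d, Sema3e, Nrp1 and Nrp2 were the same in all 15 alternatives, and the signs of 3 members near 0 were not. The log2 fold change of Sema3g turned to 0.0123 with library size only, 0.0804 with limma-voom, 0.0085 with the replicate block and 0.0311 with the batch term for number 2. With 1 library left out it ran from -0.30 to 0.62, that of Sema3b from -0.11 to 0.23 and that of Sema3f from -0.39 to 0.00072. The number of the 9 members called, 0 with the design used, was 1 with library size only and with at least 10 counts in every library, 2 with no filter and with the replicate block, 3 with DESeq2, 4 with the batch term, 5 without number 2 of both groups, and 0 to 4 with 1 library left out. For the 41 partner genes tested these numbers were 1 with the replicate block, 4 with no filter, 6 with DESeq2, 11 with the batch term, 28 without number 2 and 0 to 13 with 1 library left out. Over all genes 104 were called (0.604% of those tested), 108 with library size only and 131 with at least 10 counts in every library. There were 24 with limma-voom, 232 with the replicate block (1.35%), 639 with no filter and 1321 with DESeq2 (8.5%). The batch term gave 3799 (22.1%), and leaving out number 2 gave 9186 (52.7%). With 1 library left out there were 0 to 3239, where the highest numbers came without shCtrl library 2. The cause of these shifts was not tested. The difference in the log2 ratio of Nrp1 to Nrp2 ran from 0.37 to 0.69 and that of the Sema3a share from 0.82 to 2.61 percentage points with 1 library left out. Low counts limit what can be seen for Sema3b, Sema3c, Sema3e and Sema3g, and the assignment of groups rests on the library names.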

Other observations

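Of the 4 class 6 semaphorins and 4 A plexins, 4 log2 fold changes were positive and 4 negative, with a median of -0.0018, and Sema6d, a transmembrane ligand of Plxna1, was higher in all 3 shYthdf2 libraries (2165 ± 89.3 against 1413 ± 205 normalized counts, SD, n = 3). Its log2 fold change was 0.62 (SE 0.13, edgeR adjusted p = 0.0673, and 0.0496 with the replicate block), and 0.525 without number 2 of both groups. Sema6b was lower at -0.31 (SE 0.11, edgeR adjusted p = 0.174), and -0.44 without number 2. Of the class 4 semaphorins, B plexins and Plxnd1, 9 of 10 log2 fold changes were positive (8751 of 17214 over all genes), with a median of 0.19. Sema4c (0.33, SE 0.11) and Sema4d (0.26, SE 0.10) had groups that did not overlap and were higher, against 12.6% of all genes, and without number 2 they were at 0.43 and 0.30.

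Plxnb3 went opposite ways by library number. It had 564, 159 and 596.5 normalized counts in shYthdf2 libraries 1, 2 and 4 and 142, 434 and 117.5 in shCtrl, so that the log2 difference was 1.99, -1.45 and 2.34. Its log2 fold change was 0.92 (SE 0.62, edgeR adjusted p = 0.450) with all libraries and 2.145 without number 2. The summed microglial markers had the same order of libraries within each group, with number 2 lowest in shYthdf2 and highest in shCtrl. Of the oligodendrocyte markers, Sox10 also had this order, with 694, 486 and 772 in shYthdf2 and 228, 995 and 223 in shCtrl. Olig2 and Pdgfra likewise had number 2 lowest in shYthdf2 and highest in shCtrl, whereas the sum of that list was highest in number 2 of both groups. These values were noticed after the data were seen, and their cause was not tested.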
